A study of Mus musculus with 5 samples.

Results

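The genes described here encode the machinery that carries newly made proteins from the endoplasmic reticulum (ER) to the Golgi apparatus and back. They were chosen by name, as 47 gene symbols, and 46 of them were found among the 22609 genes of the deposited table. The missing symbol, Sec12, is another name of Preb, which was found. Expression was measured by poly(A) RNA sequencing of whole mammary gland without lymph nodes, collected from outbred mice on the day of parturition. There were 3 libraries described as Nfib-null (KO) and 2 from wild-type animals. The age of the mice and the way in which Nfib was deleted are not stated in the labels. The product of Nfib, nuclear factor I/B, is a transcription factor, and the series asks how far it acts with STAT5, the factor that carries the prolactin signal, in gene expression induced by pregnancy.

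Secretory cells pack folded proteins at ER exit sites into vesicles with a COPII coat, while vesicles with a COPI coat bring escaped ER proteins and transport receptors back from the Golgi. Each coat is put in place by a small GTPase, Sar1 for COPII and ARF for COPI, and receptors that span the membrane link cargo to the coats. In the lactating gland alveolar epithelial cells send caseins and whey proteins to the milk through this route.

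The deposited values were in RPKM, read counts divided by gene length and library size, with 1 value per gene for a whole group. Library values were not used here, so no difference below has a standard deviation, a replicate check or a test, and differences are described by size alone. One column is headed Nfib-WT, as the wild-type libraries are. The other is headed NfibFF-WC, a name that the labels do not spell out, and by elimination it was taken as that of the Nfib-null libraries. Nfib stood at 55.3 RPKM in the NfibFF-WC column, against 33.7 RPKM in the Nfib-WT column (0.30 on the scaled log2 scale described below). When scaled to luminal markers its difference was −0.40, still above the median of all genes tested at −0.61. The targeted gene thus had the higher deposited value in the column taken as mutant. An assignment by elimination can be wrong, and a whole-gene value can include exons outside a deletion and cells that keep the gene. None of these was tested. Because of this the columns are called by their headings throughout, and every direction below is that of the column labelled NfibFF-WC relative to the column labelled Nfib-WT. As a rough guide to depth, a value was taken as the mean over a group's libraries, and each low value as 1 read in 1 library. Within a range of depths set beforehand, the most frequent depth was then about 27200000 reads per library in the NfibFF-WC column (36 of 590 genes with low values). In the Nfib-WT column it was 14900000 (41 of 515). At these depths the lowest values among the transport genes, 7.09 RPKM for Gorasp1 in the NfibFF-WC column and 6.48 RPKM for Kdelr3 in the Nfib-WT column, would rest on about 192.8 reads per kilobase in an NfibFF-WC library and 96.5 in an Nfib-WT library.

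Differences are given as log2(scaled RPKM + 1), NfibFF-WC minus Nfib-WT, after median-ratio scaling of both columns, so that the median gene stands at 0. That scaling removed a median log2 ratio of 0.41. A gene is called lower or higher from 2-fold, among the 12511 genes that averaged 1 RPKM or more. The choice of scaling matters because 10 milk genes (5 casein genes, Wap, Lalba, Glycam1, Olah and Fabp3) held 26.3% of the summed RPKM in the NfibFF-WC column and 62.3% in the Nfib-WT column. Of all genes beyond 2-fold, 53.8% were higher after median-ratio scaling, 55.2% after quantile normalization, 68.2% with equal sums without the 20 most abundant genes, 83.0% with values as deposited, 97.8% with equal sums over all genes and 6.65% with scaling to luminal epithelial markers. Under these scalings the median of all genes lay at 0, −0.01, 0.15, 0.35, 1.03 and −0.61. Differences below are therefore read relative to the median gene.

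Transport genes as a group were lower in the NfibFF-WC column relative to the median gene. Among the 46, 11 passed 2-fold downwards and 0 upwards, against 5.97% of all genes tested that were lower and 6.95% that were higher. Their median difference was −0.80, with a range of −1.76 to 0.22. Among the 7265 genes whose mean level lay within the range of these 46, a set not matched to them gene by gene, the median was −0.08. The 11 genes, from the largest difference, were Sec23b, Lman1, Mcfd2, Copz1, Sec24d, Surf4, Sec13, Arcn1, Copb2, Tmed3 and Creb3l1. The median lay below that of all genes under each of the 6 scalings, by 0.59 with quantile normalization at the least and by 0.88 with luminal scaling at the most. All scalings but quantile normalization apply 1 factor per column. Relative to the median gene they can differ only through the 1 added before log2. Agreement among them is therefore nearly built in, and only quantile normalization is a separate check. Individually, 41 of the 46 genes lay below the median gene under all 6 scalings, 3 (Sec24b, Copz2 and Arf5) lay above it under all 6, and Golga2 and Ergic3 changed sides. Sec23b, Lman1, Mcfd2 and Sec24d were at least 2-fold below the median gene under all 6. With values as deposited only Sec23b and Lman1 were 2-fold lower and 0 of the 46 higher, against 2.95% of all genes that were lower and 14.4% that were higher. With quantile normalization 4 were lower and 0 higher, against 5.48% and 6.75% of all genes. With equal sums without the 20 most abundant genes 7 were lower and 0 higher, against 4.38% and 9.38%. With luminal scaling 38 were lower and 0 higher, against 24.9% and 1.77%. With equal sums over all genes 0 were lower and 5 higher, against 1.19% and 51.9%. After median-ratio scaling 31 of the 46 were at least 1.5-fold lower and 0 higher, against 14.7% and 17.1% of all genes, and 0 passed 4-fold in either direction, against 1.23% lower and 0.727% higher.

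**Figure D1:**
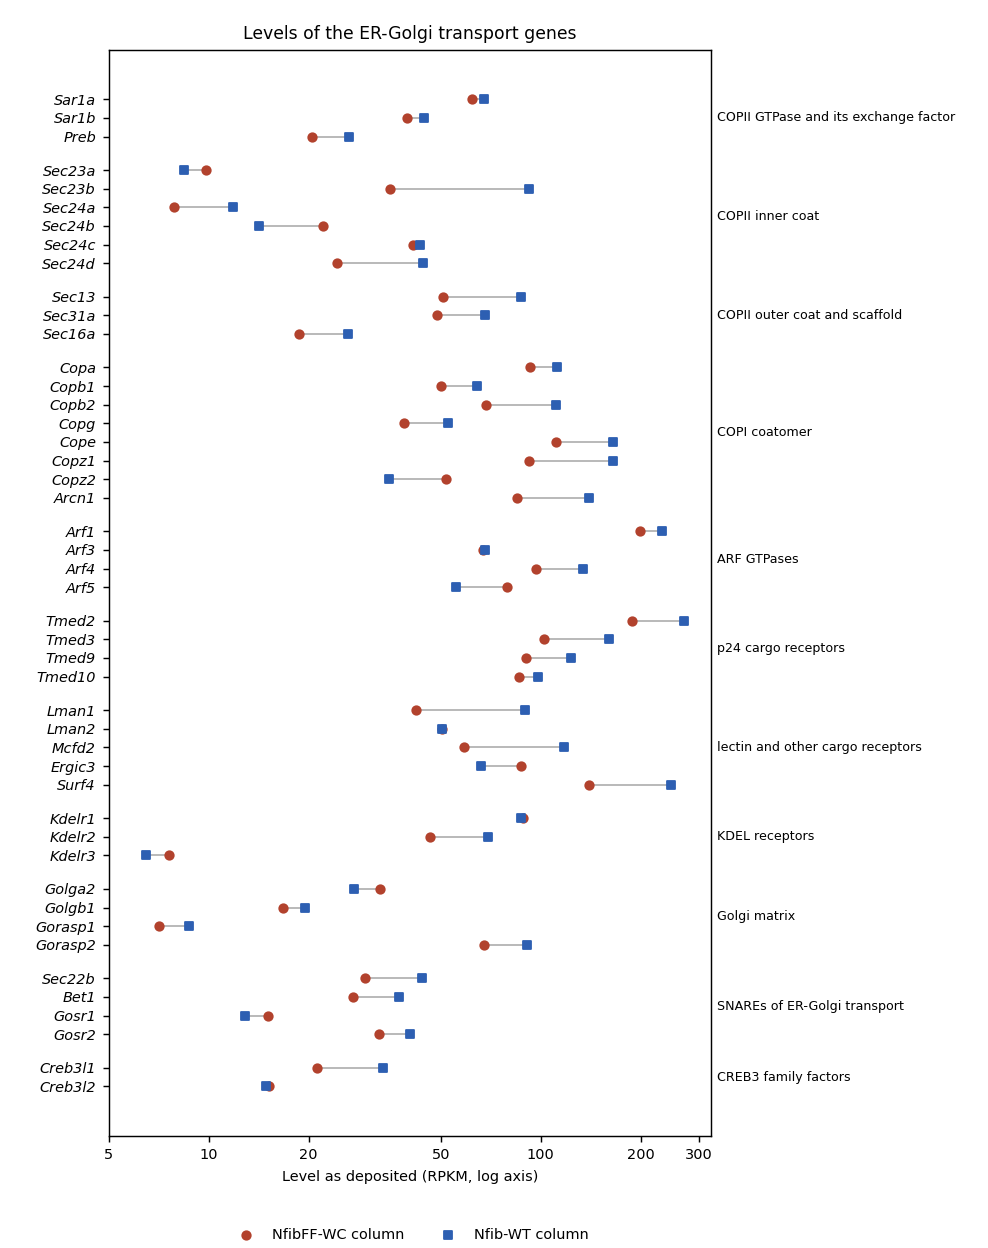
Level of each of the 46 transport genes as deposited (RPKM, log axis), with the NfibFF-WC column as circles and the Nfib-WT column as squares, grouped by role. Sec23b, Lman1 and Mcfd2 have the longest lines between their points, and 11 genes, among them Sec24b, Copz2, Arf5 and Ergic3, have the circle to the right.

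Milk mRNA differed far more than the transport genes did. The 10 milk genes summed to 144289 RPKM in the NfibFF-WC column and 590270 RPKM in the Nfib-WT column, and all 10 were at least 2-fold lower (median −3.67), as they were with values as deposited, though 5 of 10 with quantile normalization. That method gives equal ranks equal values, so it cannot show a difference for a gene of the same rank in both columns. Csn2, Csn1s2a and Csn3 came out at 0 there. Wap and Glycam1 share 1 exact value in the Nfib-WT column, and the cause was not tested. The 46 transport genes summed to 2664 RPKM in the NfibFF-WC column and 3585 RPKM in the Nfib-WT column. For each RPKM of transport genes the NfibFF-WC column thus held 54.2 RPKM of milk genes, against 164.7 in the Nfib-WT column. As a share of all RPKM the transport genes made up 0.486% in the NfibFF-WC column and 0.378% in the Nfib-WT column, which is the opposite order and follows the scaling to equal sums over all genes, under which their median difference was 0.37. In RNA of whole glands, fewer cells of a type and less RNA per cell cannot be told apart.

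Markers of other cells moved with this comparison. Luminal epithelial markers summed to 2436 RPKM in the NfibFF-WC column and 1716 RPKM in the Nfib-WT column, with 6 of 18 at least 2-fold higher and 1, Elf5, lower (median 0.71). Adipocyte markers summed to 10088 RPKM in NfibFF-WC and 2071 RPKM in Nfib-WT with 9 of 10 higher (median 1.91), fibroblast markers to 1921 RPKM in NfibFF-WC and 526 RPKM in Nfib-WT with 10 of 10 higher (1.496), and macrophage markers to 446 RPKM in NfibFF-WC and 130 RPKM in Nfib-WT with 7 of 8 higher (1.30). Myoepithelial markers summed to 1100 RPKM in the NfibFF-WC column and 669 RPKM in the Nfib-WT column, endothelial markers to 157 RPKM in the NfibFF-WC column and 113 RPKM in the Nfib-WT column, and 0 of 8 and 0 of 6 passed 2-fold. Of 6 lymphocyte and plasma cell markers over the minimum, 4 were lower and 1, Igj, was higher, with sums over all 7 of 115.03 RPKM in the NfibFF-WC column and 52.4 RPKM in the Nfib-WT column. Igj alone held 108.9 RPKM of the NfibFF-WC sum and 36.3 RPKM of the Nfib-WT sum, so the order of the sums is that of Igj. No marker in these lists was at 0 in either column. The part of these cells in the differences of the transport genes was not tested.

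The largest COPII difference was in the inner coat, the layer that touches the membrane and binds cargo. Sec23b, a subunit that speeds GTP hydrolysis by Sar1, stood at 35.3 RPKM in the NfibFF-WC column and 92.1 RPKM in the Nfib-WT column, 2.61-fold lower as deposited and −1.76 on the scaled log2 scale. This difference lay at percentile 1.70 of all genes tested. Its paralogue Sec23a stood at 9.84 RPKM in the NfibFF-WC column, against 8.42 RPKM in the Nfib-WT column (−0.17). Sec23b therefore made up 78.2% of the summed Sec23 RPKM in the NfibFF-WC column and 91.6% in the Nfib-WT column. Such a share within a family does not depend on a factor that scales a whole column.

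The 4 Sec24 genes, which encode the subunits that recognise cargo, did not share a direction. Sec24d stood at 24.3 RPKM in the NfibFF-WC column and 44.1 RPKM in the Nfib-WT column (−1.23), and Sec24a at 7.85 RPKM in NfibFF-WC and 11.9 RPKM in Nfib-WT (−0.91). Sec24c was at 41.2 RPKM in the NfibFF-WC column and 43.2 RPKM in the Nfib-WT column (−0.47). Sec24b had the highest difference of all 46 genes, with 22.2 RPKM in the NfibFF-WC column and 14.2 RPKM in the Nfib-WT column (0.22). Within the family Sec24d accounted for 25.5% of the RPKM in the NfibFF-WC column and 38.9% in the Nfib-WT column, while Sec24b accounted for 23.2% in the NfibFF-WC column and 12.5% in the Nfib-WT column. Since Sec23 and Sec24 proteins pair with each other in the inner coat, their summed levels were compared. The Sec23 genes summed to 45.1 RPKM and the Sec24 genes to 95.5 RPKM in the NfibFF-WC column, a ratio of 0.473, against 100.5 and 113.4 RPKM in the Nfib-WT column, a ratio of 0.887.

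In the outer coat, Sec13 stood at 50.7 RPKM in the NfibFF-WC column and 87.2 RPKM in the Nfib-WT column (−1.18). Sec31a, with which Sec13 builds the cage, stood at 48.8 RPKM in NfibFF-WC and 68.2 RPKM in Nfib-WT (−0.88), and Sec16a, the scaffold of ER exit sites, at 18.7 RPKM in NfibFF-WC and 26.3 RPKM in Nfib-WT (−0.86). The GTPase genes differed less. Sar1a stood at 62.0 RPKM in the NfibFF-WC column and 67.5 RPKM in the Nfib-WT column (−0.53), Sar1b at 39.5 RPKM in NfibFF-WC and 44.6 RPKM in Nfib-WT (−0.57), and Preb, the exchange factor that loads Sar1 with GTP, at 20.5 RPKM in NfibFF-WC and 26.6 RPKM in Nfib-WT (−0.75). Sar1a made up 61.0% of the Sar1 RPKM in the NfibFF-WC column and 60.2% in the Nfib-WT column. In all, 3 of 12 COPII genes passed 2-fold downwards and 0 upwards (median −0.81), against 5.97% and 6.95% of all genes tested.

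**Figure D2:**
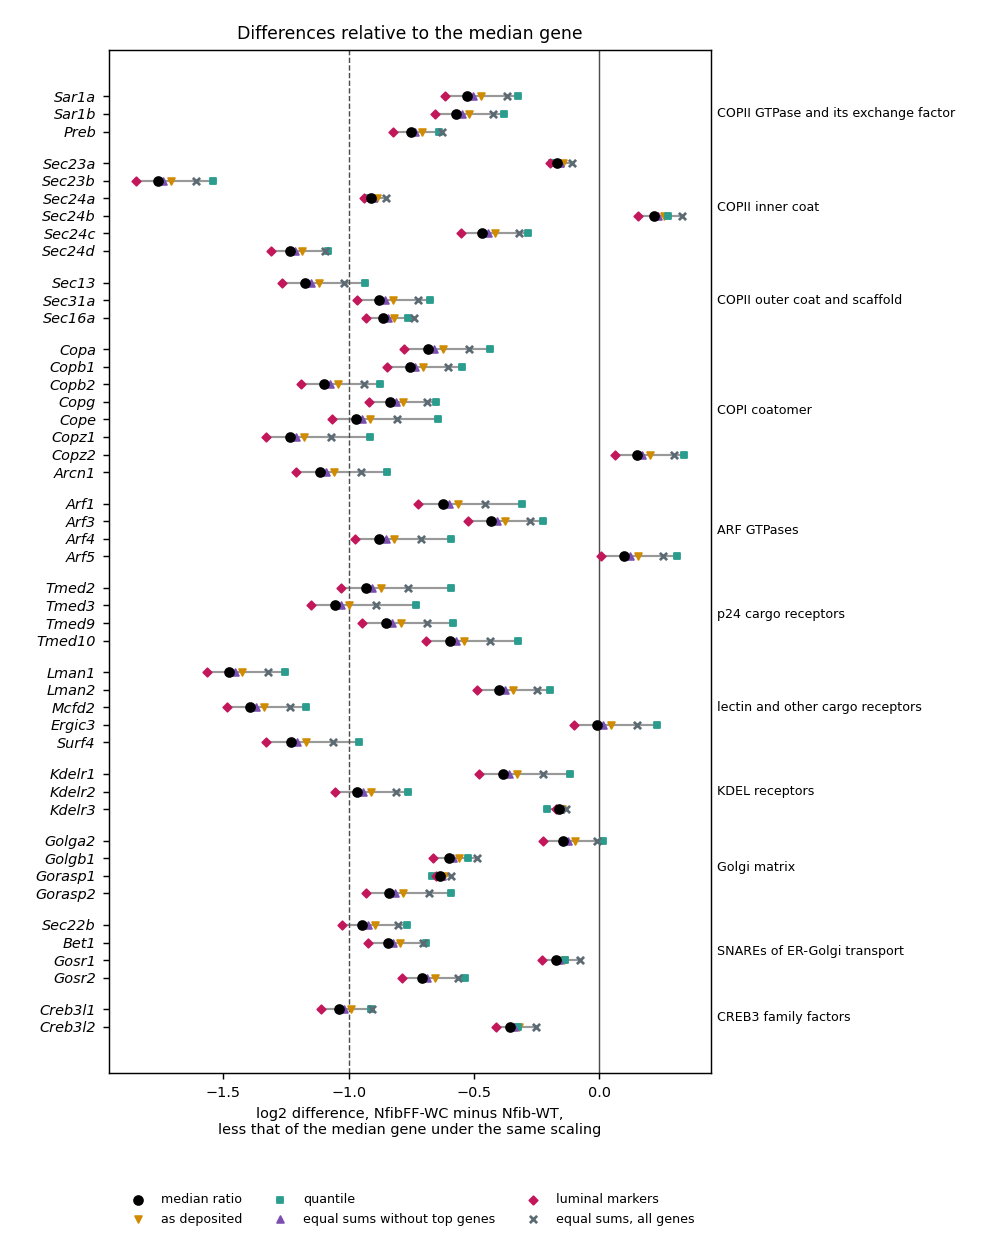
For each of the 46 genes, the log2 difference NfibFF-WC minus Nfib-WT less that of the median gene, under 6 scalings (symbols) joined by a line, with 0 and a 2-fold limit marked. Sec23b lies between −1.85 and −1.54, and Lman1, Mcfd2 and Sec24d also stay beyond the limit, while Sec24b, Copz2 and Arf5 stay right of 0.

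COPI genes were lower to a similar extent, with 3 of 12 coatomer and ARF genes at least 2-fold lower and 0 higher (median −0.80). Of all genes tested, 5.97% were lower and 6.95% higher. Copz1, the main zeta subunit, stood at 92.5 RPKM in the NfibFF-WC column and 165 RPKM in the Nfib-WT column (−1.24). Arcn1, the delta subunit, stood at 84.9 RPKM in NfibFF-WC and 139 RPKM in Nfib-WT (−1.12), and Copb2, the beta-prime subunit that binds dilysine sorting signals, at 68.4 RPKM in NfibFF-WC and 111 RPKM in Nfib-WT (−1.10). The remaining coatomer subunits were within 2-fold. Cope (epsilon) stood at 111 RPKM in the NfibFF-WC column and 165 RPKM in the Nfib-WT column (−0.97), and Copg (gamma) at 38.8 RPKM in NfibFF-WC and 52.8 RPKM in Nfib-WT (−0.84). Copb1 (beta) stood at 50.1 RPKM in the NfibFF-WC column and 64.3 RPKM in the Nfib-WT column (−0.76), and Copa (alpha) at 92.6 RPKM in NfibFF-WC and 112 RPKM in Nfib-WT (−0.68).

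Copz2, the second zeta gene, stood apart from the rest of the coatomer at 51.7 RPKM in the NfibFF-WC column and 35.0 RPKM in the Nfib-WT column (0.15). It made up 35.9% of the zeta RPKM in the NfibFF-WC column and 17.5% in the Nfib-WT column. The gamma subunits showed the same order, since Copg2, a gene outside the 46 that was named after its value had been seen, made up 36.7% of the gamma RPKM in the NfibFF-WC column and 23.9% in the Nfib-WT column. In summed RPKM the COPII coat genes, the Sar1 genes and Sec16a together stood at 0.611 of the coatomer genes in the NfibFF-WC column and at 0.601 in the Nfib-WT column.

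Among the ARF genes, Arf1, whose product recruits coatomer, stood at 199 RPKM in the NfibFF-WC column and 232 RPKM in the Nfib-WT column (−0.63). Arf4 stood at 96.7 RPKM in NfibFF-WC and 134 RPKM in Nfib-WT (−0.88) and Arf3 at 66.8 RPKM in NfibFF-WC and 68.1 RPKM in Nfib-WT (−0.43). Arf5 was the ARF gene above the median gene, with 79.0 RPKM in the NfibFF-WC column and 55.4 RPKM in the Nfib-WT column (0.10).

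**Figure D3:**
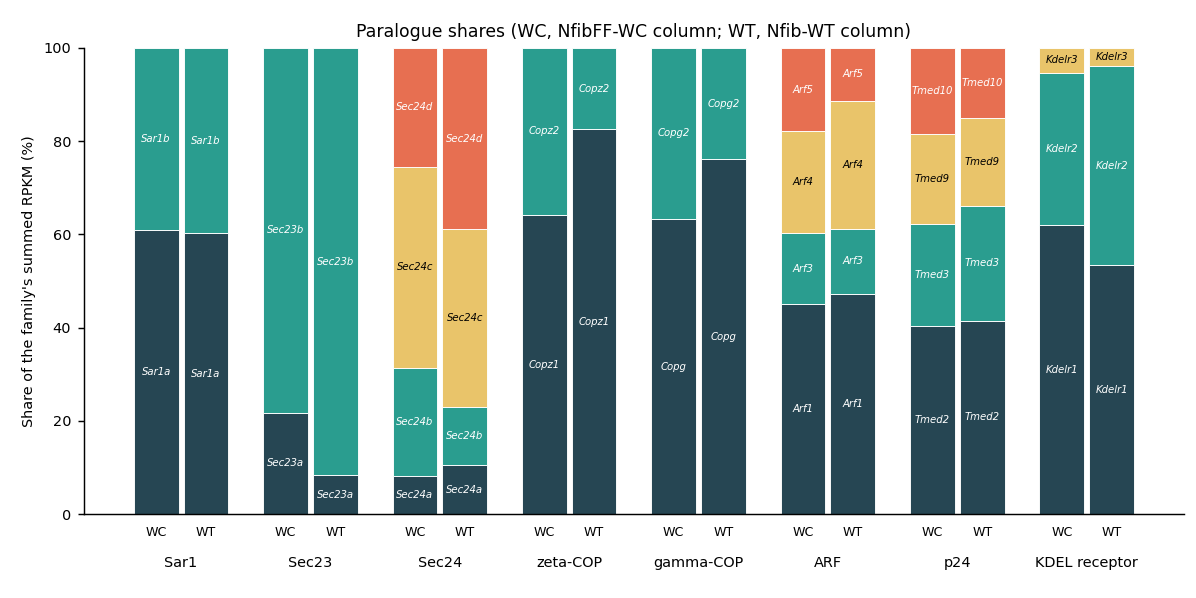
Share of each paralogue in the summed RPKM of its family (%), with the NfibFF-WC column (WC) left of the Nfib-WT column (WT). Sec23a, Sec24b, Copz2, Copg2 and Arf5 take larger shares in the NfibFF-WC column, while the Sar1 shares differ by 0.818 percentage points.

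Cargo receptors held the largest differences among the 46 genes after Sec23b. Lman1, a mannose-binding lectin, stood at 42.1 RPKM in the NfibFF-WC column and 89.7 RPKM in the Nfib-WT column (−1.48). Mcfd2, its calcium-binding partner, stood at 58.6 RPKM in NfibFF-WC and 117 RPKM in Nfib-WT (−1.39). In humans the complex of both carries coagulation factors V and VIII out of the ER. The ratio of Lman1 to Mcfd2 was 0.718 in the NfibFF-WC column and 0.765 in the Nfib-WT column. Surf4, a receptor for soluble cargo such as lipoproteins, was among the most abundant of the 46 genes at 139 RPKM in the NfibFF-WC column and 248 RPKM in the Nfib-WT column (−1.23). The lectin gene Lman2 and Ergic3, which encodes a protein cycling between ER and Golgi, differed less. Lman2 stood at 50.6 RPKM in the NfibFF-WC column and 50.4 RPKM in the Nfib-WT column (−0.40, below the median gene under all 6 scalings). Ergic3 stood at 87.2 RPKM in NfibFF-WC and 66.0 RPKM in Nfib-WT (−0.01, above the median gene under 4 of 6 scalings).

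The p24 proteins are small transmembrane receptors that enter both kinds of vesicle. Tmed2, the most abundant transport gene in the Nfib-WT column, stood at 188 RPKM in the NfibFF-WC column and 271 RPKM in the Nfib-WT column (−0.93). Tmed3 stood at 102 RPKM in NfibFF-WC and 161 RPKM in Nfib-WT (−1.06), Tmed9 at 90.2 RPKM in NfibFF-WC and 123 RPKM in Nfib-WT (−0.85) and Tmed10 at 85.8 RPKM in NfibFF-WC and 98.1 RPKM in Nfib-WT (−0.60). All 4 were below the median gene under all 6 scalings, and their shares of the summed RPKM of these 4 genes differed by at most 3.37 percentage points.

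KDEL receptors return ER chaperones that have reached the Golgi. Kdelr2 stood at 46.5 RPKM in the NfibFF-WC column and 69.2 RPKM in the Nfib-WT column (−0.97), whereas Kdelr1 stood at 88.3 RPKM in NfibFF-WC and 87.0 RPKM in Nfib-WT (−0.39) and Kdelr3 at 7.58 RPKM in NfibFF-WC and 6.48 RPKM in Nfib-WT (−0.16). Kdelr1 made up 62.0% of the family in the NfibFF-WC column and 53.5% in the Nfib-WT column. None of the 3 passed 2-fold.

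Golgi matrix and SNARE genes were within 2-fold. Gorasp2, a protein that links Golgi stacks, stood at 67.3 RPKM in the NfibFF-WC column and 91.2 RPKM in the Nfib-WT column (−0.84), and Gorasp1 at 7.09 RPKM in NfibFF-WC and 8.75 RPKM in Nfib-WT (−0.63). Of the golgin genes, Golgb1 stood at 16.7 RPKM in NfibFF-WC and 19.5 RPKM in Nfib-WT (−0.60) and Golga2 at 32.7 RPKM in NfibFF-WC and 27.3 RPKM in Nfib-WT (−0.15). Of the SNAREs, which drive fusion of ER-derived vesicles with the Golgi, Sec22b stood at 29.7 RPKM in the NfibFF-WC column and 43.8 RPKM in the Nfib-WT column (−0.95). Bet1 stood at 27.2 RPKM in NfibFF-WC and 37.3 RPKM in Nfib-WT (−0.84), Gosr2 at 32.5 RPKM in NfibFF-WC and 40.5 RPKM in Nfib-WT (−0.71) and Gosr1 at 15.1 RPKM in NfibFF-WC and 12.9 RPKM in Nfib-WT (−0.17).

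Creb3l1 and Creb3l2 encode transcription factors held in the ER membrane and released by cleavage in the Golgi, and in mouse cartilage cells Creb3l2 is known to activate Sec23a. Creb3l1 stood at 21.1 RPKM in the NfibFF-WC column and 33.6 RPKM in the Nfib-WT column (−1.04). Creb3l2 stood at 15.2 RPKM in NfibFF-WC and 14.9 RPKM in Nfib-WT (−0.36). Other secretory transcription factors, named after their values had been seen, lay on either side of the median gene. Xbp1, a factor of the unfolded protein response, stood at 767 RPKM in the NfibFF-WC column and 485 RPKM in the Nfib-WT column (0.25). With luminal scaling its difference was −0.47, still above the median gene at −0.61. Atf4 stood at 102 RPKM in NfibFF-WC and 150 RPKM in Nfib-WT (−0.96).

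The order of levels among the 46 genes, which no scaling of a whole column by 1 factor changes, differed between the columns for 42 of them, by 10 places or more for Sec23b, Copz2, Ergic3, Arf5 and Lman1. Arf1 ranked highest in the NfibFF-WC column and Tmed2 in the Nfib-WT column. Sec23b ranked 30 in the NfibFF-WC column and 14 in the Nfib-WT column, and Lman1 ranked 26 in the NfibFF-WC column and 16 in the Nfib-WT column. Copz2 ranked 20 in the NfibFF-WC column and 34 in the Nfib-WT column, and Ergic3 ranked 11 in the NfibFF-WC column and 23 in the Nfib-WT column. Arf5 ranked 14 in the NfibFF-WC column and 25 in the Nfib-WT column. With no replicates, neighbours in this order cannot be told apart.

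Start-site sequences were examined for short elements because many of the genes were lower together. RefSeq windows of 250 bases before and 50 bases after a start site (GRCm38.p6) were found for 40 of the 46 genes, in 45 windows, with Copg matched as Copg1. Arcn1 (−1.12), Tmed2 (−0.93), Lman1 (−1.48), Kdelr2 (−0.97), Golgb1 (−0.60) and Creb3l1 (−1.04) had no entry. These 6 genes are left out of every median with or without an element below. The letters TGACGTGG, an element bound by the unfolded protein response factors ATF6 and XBP1, were searched on both strands, where the other strand reads CCACGTCA. They occurred in 7 of 45 windows (15.6%), from 6 genes, against 0.864% of 11345 windows of genes tested and 0.676% of all 32851 windows. The stretches show the element of 5 of these genes in capitals with the 30 bases before it, read 5′ to 3′ on the gene's strand. They go on to the start site, or stop at the end of the element in Copb2 and Arf1, where it reaches or lies past the start. Arf1 has 2 overlapping windows that hold the same copy. The stretch is from the window in which the copy lies past the start, and in the other window the copy lies at −84 to −77 from the start.
Sec24d, first base of the element 26 bases before the start, chr3:123267440-123267495, plus strand: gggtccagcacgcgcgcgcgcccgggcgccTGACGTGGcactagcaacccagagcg
Copb2, 7 bases before the start, chr9:98563694-98563731, plus strand: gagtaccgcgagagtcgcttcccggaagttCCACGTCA
Copb1, 28 bases before the start, chr7:114254681-114254738, minus strand: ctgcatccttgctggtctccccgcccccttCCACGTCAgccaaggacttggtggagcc
Kdelr3, 30 bases before the start, chr15:79516348-79516407, plus strand: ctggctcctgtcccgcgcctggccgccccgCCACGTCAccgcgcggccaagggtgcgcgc
Arf1, from base 22 of the transcript, chr11:59228239-59228276, minus strand: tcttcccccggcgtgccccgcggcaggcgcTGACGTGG

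The differences of genes with and without the element had close medians. Sec24d (−1.23) and Copb2 (−1.10) were at least 2-fold lower, Copb1 (−0.76), Arf1 (−0.63) and Kdelr3 (−0.16) were within 2-fold, and the median of all 6 genes was −0.69, against −0.73 for the 34 genes whose windows did not hold it. The shorter letters TGACGT, the core of the cAMP response element and part of the longer element, occurred in 40.0% of the windows, against 10.9% of windows of genes tested and 7.51% of all. The 17 genes with it had a median of −0.71, against −0.75 for the 23 without it. The full palindrome TGACGTCA was in 4.44% of the windows, against 2.95% of windows of genes tested. CCACG, which overlaps the longer element, was in 75.6% of the windows, against 46.6% of windows of genes tested and 32.8% of all, with medians of −0.75 in 31 genes with it and −0.68 in 9 without it. The ER stress response element, CCAAT and CCACG 9 bases apart, was in 0 of the 45 windows and in 0.132% of windows of genes tested.

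**Figure D4:**
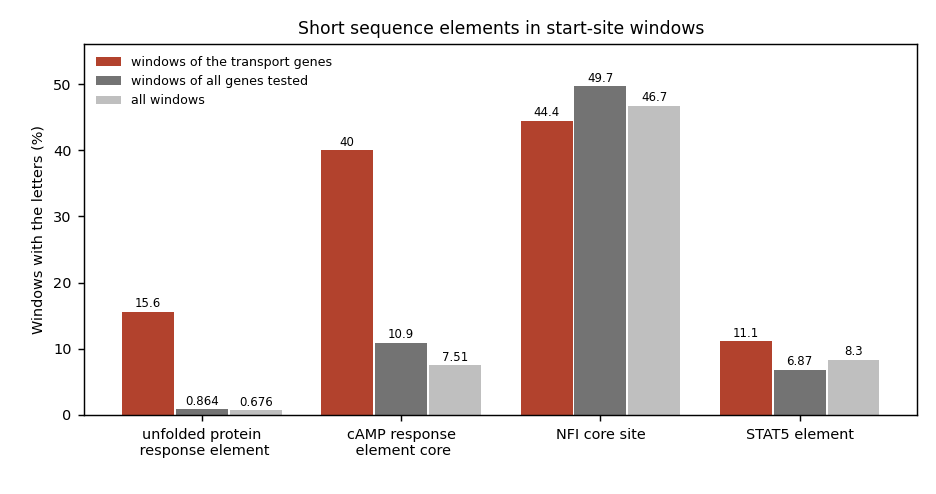
Share of start-site windows (%) that hold each of 4 short elements on either strand, for the 45 windows of the transport genes, the 11345 windows of all genes tested and all 32851 windows. The unfolded protein response element and the cAMP response element core stand out in the transport genes at 15.6% and 40.0%, and the elements of NFI and STAT5 lie nearer to the other bars.

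Elements of the factors named in the series were searched in the same way. TTGGC, the core of the site of NFI factors, occurred in 44.4% of the windows, against 49.7% of windows of genes tested and 46.7% of all. The 20 genes with it had a median difference of −0.86, against −0.55 for the 20 without it. The NFI palindrome, TTGGC and GCCAA 5 bases apart, was in 0 of the 45 windows and in 0.0365% of all. TTCNNNGAA, the element bound by STAT5, occurred in 5 windows (11.1%), against 6.87% of windows of genes tested and 8.30% of all. They belonged to Sec23b, Copz1, Copb2, Bet1 and Gorasp2, whose differences ran from −1.76 to −0.84 (median −1.10, against −0.63 for the 35 other genes with a window). The upstream window of Sec23b, the gene with the largest difference, is shown to the start site with TTCNNNGAA and, close to the start, TGACGT in capitals. These matches describe letters in a window and not binding, and their part in the differences was not tested.
Sec23b, chr2:144555979-144556228, plus strand: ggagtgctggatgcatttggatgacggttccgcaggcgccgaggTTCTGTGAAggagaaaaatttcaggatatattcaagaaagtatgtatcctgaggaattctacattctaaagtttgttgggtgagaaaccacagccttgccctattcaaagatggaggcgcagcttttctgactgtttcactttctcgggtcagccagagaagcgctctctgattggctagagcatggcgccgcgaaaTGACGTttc

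Other genes of the same route, listed by role apart from the 46, differed less. Of 84 such symbols 83 were in the table and 79 passed the minimum, of which 9 (11.4%) were at least 2-fold lower and 0 higher (median −0.46), against 5.97% of all genes tested that were lower and 6.95% that were higher. The 9 lower genes spanned several roles. Sec16b, a relative of the exit-site scaffold Sec16a, stood at 5.48 RPKM in the NfibFF-WC column and 17.7 RPKM in the Nfib-WT column (−1.90). The Golgi membrane gene Yipf5 stood at 24.4 RPKM in NfibFF-WC and 49.1 RPKM in Nfib-WT (−1.38). Lower too were the ARF exchange factor genes Arfgef2 at 12.9 RPKM in NfibFF-WC and 24.8 RPKM in Nfib-WT (−1.28) and Gbf1 at 19.0 RPKM in NfibFF-WC and 34.4 RPKM in Nfib-WT (−1.22). Golph3, which helps to keep glycosyltransferases in the Golgi, stood at 70.6 RPKM in NfibFF-WC and 122 RPKM in Nfib-WT (−1.18). Nbas (−1.15) and Uso1 (−1.15), both vesicle tethers, Scfd1 (−1.04), which binds SNAREs, and Yipf6, at 15.9 RPKM in NfibFF-WC and 24.7 RPKM in Nfib-WT and just past the limit, completed them.

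These counts by role are small and stand beside the same 5.97% of all genes. The other golgins and Golgi membrane genes had 3 of 15 lower (median −0.75), and the other COPI and ARF regulators 2 of 10 (−0.61). Tethers had 2 of 21 lower (9.52%, near that share, with a median of −0.35) and the other COPII and exit-site genes 2 of 9 (−0.29). The other SNAREs (−0.35), the other p24 and lectin receptors (0.08) and the other transcription factors (−0.37) had none of 9, 9 and 6 beyond 2-fold in either direction. Golim4, a Golgi protein named after its value had been seen, had the highest difference in these lists, with 43.4 RPKM in the NfibFF-WC column and 17.7 RPKM in the Nfib-WT column (0.85).

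**Figure D5:**
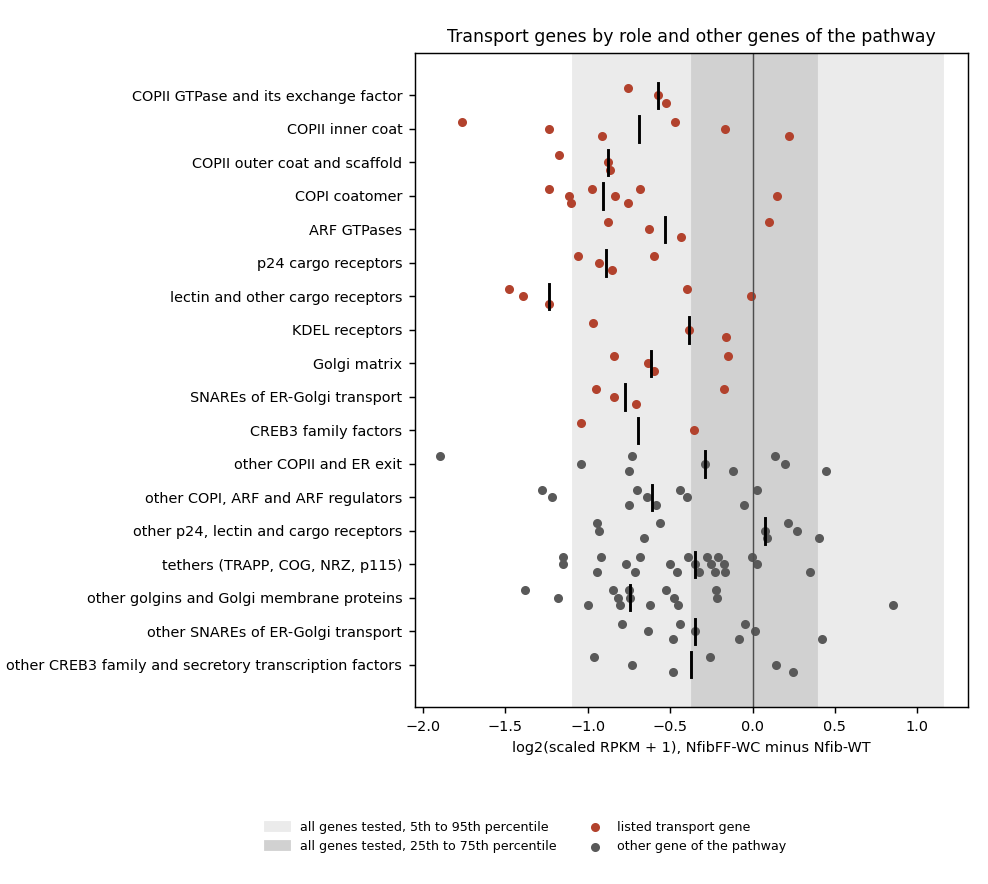
Differences in log2(scaled RPKM + 1), NfibFF-WC minus Nfib-WT, for the 46 transport genes by role (coloured) and 79 other genes of the route (grey), with list medians as black bars over the spread of all genes tested (shaded). The lectin and other cargo receptors have the lowest median at −1.23, and the other p24 and lectin receptors the highest at 0.08.

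Counting adds limits for a few genes. The library kit is not stated to keep strand, and in GENCODE M21 exons of 11 of the 46 genes overlap an exon on the other strand, over more than 10% of their exonic bases in Gorasp1 (34.1%, with Wdr48), Preb (18.6%, with Abhd1) and Gorasp2 (12.2%), so values of these 3 can hold reads of their partners. How reads shared by paralogues or pseudogenes were assigned is not given in the sources used here.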

How the data were processed

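The authors deposited 1 table in RPKM, per the file headers, with 22609 genes and a value per gene for each of 2 groups, and no column was left unused. Per the submitters' processing notes, CASAVA and TopHat were used with mm9. How reads were counted, on which annotation, and how libraries were combined is not given in the sources used here. Per the labels' protocols, RNA came from TRIzol extraction and went into TruSeq libraries. The filter kept genes averaging 1 RPKM or more, weighted by 3 and 2 libraries. Columns were divided by median-ratio factors of 1.153 (NfibFF-WC) and 0.867 (Nfib-WT), and log2 was taken with a pseudocount of 1 (Python 3.11.15, numpy 2.4.6, pandas 2.3.3). The calculation was tested on simulated data. Values as deposited, quantile normalization, equal sums, luminal scaling, pseudocounts of 0.1 and 5, other minimums and fold limits of 1.5 and 4 were tried.

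Groups come from the labels, and the NfibFF-WC column was tied to the Nfib-null libraries by elimination. With 1 value per group no test was made. Genes and lists were chosen with earlier results of these data known. Every listed gene is accounted for, and of the other pathway genes those past 2-fold are named. Several sequence elements were searched on both strands. Depth was estimated from low values in genes with 1 transcript in GENCODE M21 (GRCm38), each taken as 1 read in 1 library, so it is approximate. Sequences are from RefSeq (GRCm38.p6), the stretch of 1 gene is not reported here, and mm9 positions were not used. None of the 46 genes shared its exact value with another gene in either column.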

Additional observations from a re-analysis of the deposited data

How the results depend on the processing

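No paired analysis was possible because the table holds 1 value per group, and leaving out a library could not be run for the same reason. The counts of genes at least 2-fold lower (11 of the 46, of which 3 COPII and 3 COPI and ARF, and 9 other pathway genes) and the median of −0.80 depended on the scaling. With values as deposited the counts were 2 lower genes, 1 COPII, 0 COPI and ARF and 1 other pathway gene, with a median of −0.40 (2.95% of all genes tested were lower). With quantile normalization they were 4, COPI and ARF 0, and 5 other genes (median −0.60, all genes 5.48%), and with equal sums without the 20 most abundant genes 7, COPI and ARF 1, and 5 (−0.63, all genes 4.38%). With scaling to luminal markers they were 38, 10 COPII, 10 COPI and ARF, and 47 other genes (−1.50), while 24.9% of all genes were lower and their median was −0.61. With equal sums over all genes, an alternative added after the data had been seen, 0 were lower in each of these lists and 5 of the 46 were higher, while 1.19% of all genes were lower, 51.9% were higher and their median was 1.03. The median of the 46 reversed to 0.37 there, and 37 of them that were below 0 came to lie above it, among them 5 that had passed 2-fold, Sec13 (0.0061), Copb2 (0.0876), Arcn1 (0.074), Tmed3 (0.13) and Creb3l1 (0.12). These scalings differ by construction in the level given to the median gene. A pseudocount of 5 gave a median of −0.68. With a limit of 1.5-fold 31 were lower (7 COPII, 9 COPI and ARF, 33 other genes), against 14.7% of all genes, and with 4-fold 0 in each list, against 1.23%. Without a filter, and with a pseudocount of 0.1, all 46 genes kept their side of the 2-fold limit. With a minimum of 5 RPKM Tmed3 (−0.99) and Creb3l1 (−0.98) no longer passed it and Ergic3 changed sign (0.05), and with a pseudocount of 5 Creb3l1 (−0.91) no longer passed it. The spread between animals was not measured, so no difference can be set against it.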
